A study of Danio rerio with 9 samples.

Results

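gata2a (ENSDARG00000059327) and gata2b (ENSDARG00000009094) are the pair of zebrafish genes that correspond to mammalian GATA2, and they were found by their symbols among the 24201 genes listed for every library. Cells with a dim green signal from the cd41 promoter had been sorted and their RNA counted cell by cell. The runx1-/- animals carried the hg96 (del8) allele of runx1, and WT animals served as their reference; both were of the EK strain and carried tg(cd41:GFP). The 5 runx1-/- libraries were taken at 2.5, 6 and 10 days post fertilization (dpf) and, at 16 dpf, as one library labelled bloodless and one labelled recovered, and the 4 WT libraries at 2.5, 6, 10 and 16 dpf. Each genotype and age thus had 1 library, apart from runx1-/- at 16 dpf, and the labels give neither the number of pooled animals nor the meaning of bloodless and recovered. Libraries of different ages therefore served as the repeats of a genotype, and the spread between them holds age as well as animal.

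GATA2 is a zinc-finger transcription factor that binds GATA motifs and is needed for blood stem cells in mice. In zebrafish, gata2a is known from the endothelium of the embryo and from spinal cord interneurons, and gata2b from haemogenic endothelium, the vessel lining from which blood stem cells bud, and from stem and progenitor cells. In the red cell lineage of mice, GATA2 is high in early progenitors and is replaced by GATA1 as haemoglobin rises. The cd41 gene (itga2b) encodes a platelet integrin, and its reporter is dim in stem and progenitor cells and bright in thrombocytes, the nucleated platelets of fish.

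The libraries held 5166313 to 94476178 UMIs (unique molecular identifiers, each marking 1 captured transcript), and 28875 of 30917 barcodes were kept as cells. The median depth of kept cells was 4292.5 UMIs in the runx1-/- 6 dpf library and between 7463 and 13402.5 in the other 8. runx1 itself was read at 0.250 to 9.78 CPM (UMIs of the gene per 1000000 UMIs of the library or class) in runx1-/- libraries and at 0.0366 to 1.95 CPM in WT libraries, and these 3' tags do not test the deletion, which leaves a transcript to be counted. The runx1-/- and WT libraries at 6 dpf shared 22 barcodes, 2.75% of the smaller, and all pairs together shared 112.

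Over all cells, gata2b gave 6419 UMIs in 3281 cells (11.4% of cells) and gata2a gave 1644 UMIs in 1107 cells (3.83%). gata2b stood at 1.67, 59.5 and 75.3 CPM in the runx1-/- libraries at 2.5, 6 and 10 dpf, at 16.2 CPM at 16 dpf (bloodless), 9.99 CPM at 16 dpf (recovered), and at 17.7, 18.4, 13.9 and 5.65 CPM in the WT libraries at 2.5, 6, 10 and 16 dpf. The runx1-/- libraries at 6 and 10 dpf were the highest of the 9 and that at 2.5 dpf the lowest, so the genotypes overlapped. gata2a stood at 4.92, 12.7, 5.01, 5.84 and 6.31 CPM in the runx1-/- libraries in the same order, and at 2.05, 2.85, 2.70 and 3.96 CPM in the WT libraries. Every runx1-/- library lay above every WT library for gata2a, but with age as a factor its log2 fold change of 0.77 did not pass the test (SE 0.34, edgeR adjusted p = 0.269; 1.37% of genes called), nor did that of gata2b (0.34, SE 0.72, edgeR adjusted p = 0.822). These totals mix cell classes in different shares, so both genes were next read class by class.

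Cells were assigned to classes by marker genes that include neither gata2a nor gata2b. A cell was endothelial-, neutrophil-, thrombocyte- or macrophage-gated with at least 3 different markers and 5 marker UMIs of that class, erythroid with at least 10% haemoglobin UMIs, and an erythroid precursor with erythroid markers below that share. A cell with a UMI of myb, a transcription factor of stem and progenitor cells, and no gate was called myb-positive. gata2b was concentrated in the myb-positive class, which held 22.7% of cells and 52.3% of gata2b UMIs, and in the endothelial-gated class, which held 2.41% of cells and 13.1% of gata2b UMIs. Among these classes gata2a had no such concentration. Erythroid precursors held 21.7% of its UMIs and 18.1% of cells, and myb-positive cells 19.7% and 22.7%. Erythroid cells held 7.54% and 6.10%, and cells that met no gate 30.6% and 30.6%. Outside these classes, gata2a stood at 62.3 CPM in cells gated by neuron markers. A further 21.5% of its UMIs lay in 173 cells of a gate described below. That gate was picked for its gata2a UMIs after the values were seen, so this share follows in part from the choice.

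The endothelial gate took cells almost entirely from runx1-/- libraries. It held 8, 72 and 387 cells at 2.5, 6 and 10 dpf, with 129 (bloodless) and 88 (recovered) at 16 dpf, against 1, 0, 5 and 5 cells in the WT libraries. In the 4 libraries with at least 20 such cells, cldn5b, a junction protein, had a UMI in 86.0 to 97.2% of the cells, ecscr in 73.1 to 87.5% and the transcription factor sox7 in 65.9 to 84.7%. The receptor genes kdrl and flt1, also gate markers, reached only 2.27 to 10.9% and 0 to 6.82%. Of the other gate markers, kdr reached 6.82 to 15.5%, tie1 5.43 to 13.6% and cdh5 12.4 to 40.8%. In the same gate clec14a reached 19.4 to 41.1%, robo4 7.95 to 23.6% and she 7.95 to 20.8%, and the rest stayed at or below 10.1%. Among genes outside the gate, lmo2 was found in 61.2 to 83.2%, tal1 in 47.3 to 61.2% and myb in 28.4 to 46.0%. There too, cd74b was found in 18.1 to 86.8% and coro1a in 23.6 to 45.5%. Also outside the gate, fli1a was found in 46.6 to 63.3%, ptprc in 2.78 to 13.2%, runx1 in 2.33 to 9.72% and itga2b in 0 to 1.55%. The label rests on the gate markers and fits the cells at most in part, so they are called endothelial-gated here.

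**Figure D1:**
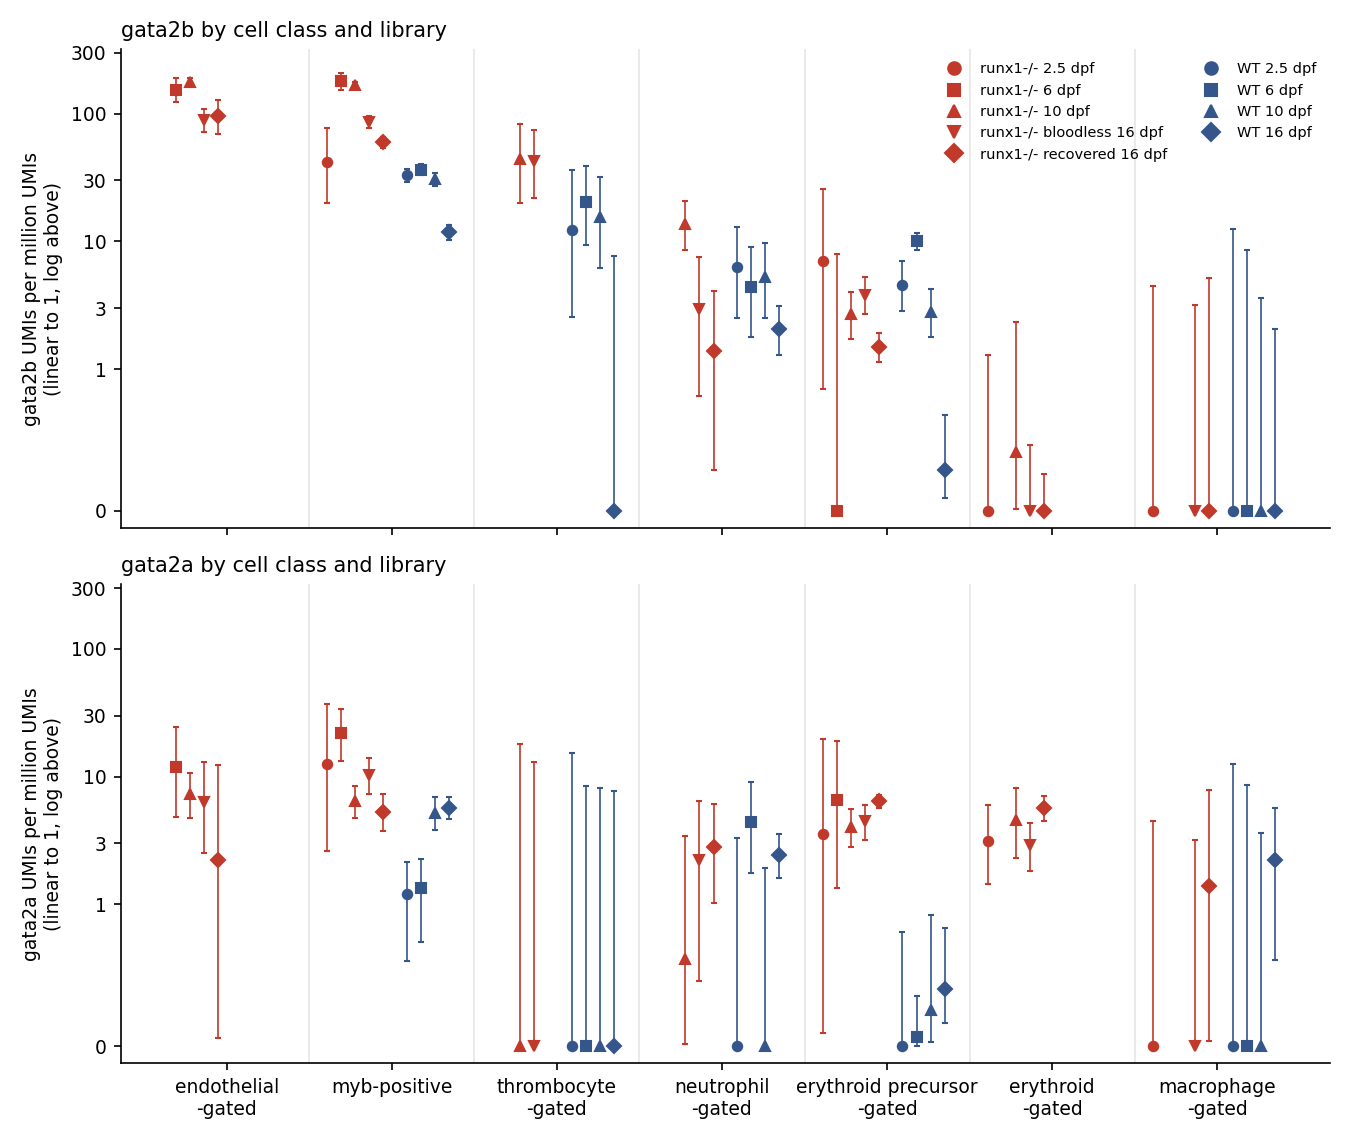
Level of gata2b (top) and gata2a (bottom) in each cell class and library, in CPM of the class, on an axis that is linear up to 1 and logarithmic above. Points are libraries with at least 20 cells of the class, runx1-/- in red to the left of WT in blue, and bars are exact 95% Poisson intervals. gata2b spans from endothelial-gated cells at 89.0 to 176 down to macrophage-gated cells at 0, while gata2a lies within 2.23 to 12.0 in endothelial-gated and 2.90 to 5.68 in erythroid cells.

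gata2b was high in both endothelial-gated and myb-positive cells. In endothelial-gated cells it stood at 154, 176, 89.0 and 96.0 CPM in the runx1-/- libraries at 6 dpf, 10 dpf, 16 dpf bloodless and 16 dpf recovered. In the myb-positive cells of the same libraries it stood at 179, 168, 86.8 and 59.6 CPM. The classes overlapped, with the endothelial-gated value above the myb-positive one in 3 of 4 libraries, and the counts summed over these libraries gave a ratio of 1.32 (95% interval 1.22 to 1.43). This interval, like all Poisson, binomial and ratio intervals here, covers counting error only. By edgeR's quasi-likelihood test with library as a block and Benjamini-Hochberg adjustment over 11229 genes, the log2 fold change of endothelial-gated over myb-positive cells was 0.46 (SE 0.34, adjusted p = 0.509), in a comparison where 7.19% of genes were called.

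Below these came thrombocyte-gated cells, with gata2b at 43.9 and 42.6 CPM in the runx1-/- 10 dpf and bloodless libraries and at 12.4, 20.5, 15.4 and 0 CPM in the WT libraries at 2.5, 6, 10 and 16 dpf. The value of 0 rests on 50 cells and allows up to 6.23 CPM, the level of 3 UMIs. gata2b was higher in endothelial-gated than in thrombocyte-gated cells by a log2 fold change of 1.98 (SE 0.46, edgeR adjusted p = 0.0055; 10.4% of genes called), and higher in myb-positive than in thrombocyte-gated cells by 1.52 (SE 0.38, edgeR adjusted p = 0.012; 9.42% called). It was lower in neutrophil-gated than in thrombocyte-gated cells, by a log2 fold change of -1.83 (SE 0.46, edgeR adjusted p = 0.0037; 26.6% called). Without both 10 dpf libraries the calls of endothelial-gated and myb-positive over thrombocyte-gated cells were lost (log2 fold changes 1.89 and 1.43, edgeR adjusted p = 0.106 and 0.142). Each of these calls was lost in 5 of 29 alternatives, with log2 fold changes down to 1.32 and 1.01 (gates of 2 markers) and edgeR adjusted p up to 0.310 (thinned) and 0.391 (runx1-/- libraries alone). The neutrophil-gated against thrombocyte-gated call was lost with cells in every class they meet (-0.29) and with 50 cells per sum (-1.25), and the sign turned when cells were thinned (3.52, edgeR adjusted p = 0.834).

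In neutrophil-gated cells gata2b stood at 13.6, 2.96 and 1.40 CPM in the runx1-/- 10 dpf, bloodless and recovered libraries and at 6.30, 4.41, 5.24 and 2.06 CPM in the WT libraries. Summed over 7 libraries, myb-positive cells held 13.3 times the level of neutrophil-gated cells (95% interval 10.5 to 16.9), and were higher in 7 of 7. The log2 fold change in edgeR was 3.35 (SE 0.34, adjusted p = 1.8e-08; 30.3% called), and that of endothelial-gated over neutrophil-gated cells was 3.81 (SE 0.42, edgeR adjusted p = 2.0e-07; 22.1% called).

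Macrophage-gated cells had no gata2b UMI in 508 cells. In the 7 libraries with at least 20 cells of each class, the myb-positive level was at least 69.3-fold higher than the floor of 3 UMIs over the macrophage group, which is 0.481 CPM. Erythroid cells held 1 gata2b UMI in 1761 cells, so 0.0568% of them had a UMI. The classes set as background for free RNA were neutrophil- and macrophage-gated cells, of which 2.70% and 0% had a gata2b UMI. After each cell was thinned to 2500 UMIs, 15.7 to 32.4% of endothelial-gated cells had a gata2b UMI (52 shallower cells left out), against 0 of 1682 erythroid cells (53 left out), which allows a share of up to 0.178%. The median depth before thinning was 4872.5 to 8001 UMIs in the endothelial-gated cells and 13644.5 to 19969 in the erythroid cells, each over the 4 runx1-/- libraries with at least 20 cells of the class.

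Against the mean of the other 4 classes (endothelial-gated, myb-positive, erythroid, neutrophil- and thrombocyte-gated cells taken in turn), gata2b was higher in endothelial-gated cells, with a log2 fold change of 3.93 (SE 0.35, edgeR adjusted p = 5.5e-09), and higher in myb-positive cells, with 3.35 (SE 0.28, edgeR adjusted p = 1.3e-08). These comparisons called 24.1% and 20.2% of genes. Both sizes average in the erythroid sums with their single gata2b UMI and so depend on the prior count of the fit. The order of gata2b was thus endothelial-gated and myb-positive cells, which did not differ beyond their spread, then thrombocyte-gated cells, neutrophil-gated cells, and erythroid cells with 1 UMI.

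Among the blood and endothelial classes gata2a spread more evenly. It stood at 12.0, 7.27, 6.30 and 2.23 CPM in the endothelial-gated cells of the runx1-/- 6 dpf, 10 dpf, bloodless and recovered libraries, and at 21.9, 6.41, 10.2 and 5.32 CPM in their myb-positive cells. The classes overlapped, the counts gave a ratio of 0.949 (95% interval 0.651 to 1.36), and the log2 fold change was -0.15 (SE 0.53, edgeR adjusted p = 0.935). In erythroid cells gata2a stood at 3.15, 4.58, 2.90 and 5.68 CPM in the runx1-/- 2.5 dpf, 10 dpf, bloodless and recovered libraries, a level that overlapped both. The log2 fold changes were -0.67 (SE 0.60, edgeR adjusted p = 0.368; 54.6% called) for endothelial-gated and -0.52 (SE 0.49, edgeR adjusted p = 0.377; 57.0% called) for myb-positive over erythroid cells. These signs run against the CPM, in which endothelial-gated cells lay above erythroid cells in 2 of 3 shared libraries and myb-positive cells in 3 of 4. With cells thinned to 2500 UMIs the log2 fold changes were 0.86 and 0.21, so no direction is given for gata2a between these classes.

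Neutrophil-gated cells had less gata2a, at 0.618, 2.22 and 2.79 CPM in the runx1-/- 10 dpf, bloodless and recovered libraries and at 0, 4.41, 0 and 2.44 CPM in the WT libraries. gata2a was higher in erythroid than in neutrophil-gated cells, with a log2 fold change of 2.0 (SE 0.58, edgeR adjusted p = 0.0056; 60.6% called). It was higher in myb-positive than in neutrophil-gated cells, with a log2 fold change of 1.48 (SE 0.47, edgeR adjusted p = 0.021, 30.3% called), and in 6 of 7 libraries. In WT, 68 of the 177 gata2a UMIs of myb-positive cells lay outside the agr2 gate described below. Outside it WT myb-positive cells stood at 1.2, 0.866, 1.69 and 1.88 CPM, below the neutrophil-gated values at 6 and 16 dpf. This contrast was not tested without the cells of that gate. The call of myb-positive over neutrophil-gated cells held in 5 of 9 fits that each left out a library. Without WT 10 dpf, runx1-/- 10 dpf, WT 16 dpf or the bloodless library the edgeR adjusted p reached up to 0.091. The call of erythroid over neutrophil-gated cells was lost in 5 of 29 alternatives: without the recovered library (1.78, edgeR adjusted p = 0.061), without 16 dpf (1.64), with gates of 2 markers (0.88), with a haemoglobin gate of 20% (1.34) and with precursors in place of erythroid cells (0.14, edgeR adjusted p = 0.873). In counts over 3 libraries the ratio was 2.39 (95% interval 1.26 to 5.13).

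The log2 fold change of gata2a in endothelial-gated over neutrophil-gated cells was 1.33 (SE 0.65, edgeR adjusted p = 0.160). In thrombocyte-gated cells of the 6 libraries with at least 20 of them, gata2a had 0 UMIs, which allows up to 1.43 CPM over the group, and the myb-positive level in those libraries was at least 3.17-fold higher. One thrombocyte-gated cell among the 3 of the runx1-/- 6 dpf library carried 5 gata2a UMIs. For endothelial-gated cells against the mean of the other 4 classes the log2 fold change of gata2a was 1.87 (SE 0.90, edgeR adjusted p = 0.137), a size that depends on the thrombocyte sums at 0. No order of gata2a is given among myb-positive, endothelial-gated and erythroid cells, whose differences lay within their spread. Neutrophil-gated cells were below erythroid and myb-positive cells by the test, the latter with the cells of the agr2 gate included. Endothelial-gated over neutrophil-gated cells did not pass it, and thrombocyte-gated sums stood at 0.

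The question whether loss of runx1 goes with another level of the GATA2 genes was asked within classes. In myb-positive cells, gata2b stood at 41.9, 179, 168, 86.8 and 59.6 CPM in the runx1-/- libraries at 2.5, 6 and 10 dpf and the bloodless and recovered libraries, and at 33.0, 36.4, 30.6 and 11.8 CPM in the WT libraries at 2.5, 6, 10 and 16 dpf. In this class, which leaves out cells that met another gate, every runx1-/- library lay above every WT library. The runx1-/- 2.5 dpf value, from 10 UMIs in 28 cells, had an interval of 20.1 to 77.1 CPM that spans 3 of the WT values. The means were 107 ± 63.0 CPM in runx1-/- (SD, n = 5 libraries) and 28.0 ± 11 CPM in WT (SD, n = 4). With age as a factor, the log2 fold change of runx1-/- over WT was 1.57 (SE 0.36, edgeR adjusted p = 0.0097), in a comparison in which 9.37% of 12465 genes were called and 5.45% were called higher.

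That call was lost without the WT 10 dpf library (log2 fold change 1.3, edgeR adjusted p = 0.072) and without the runx1-/- 10 dpf library (1.3, edgeR adjusted p = 0.066). It was also lost when cells were counted in every class they met (1.08, edgeR adjusted p = 0.271). There every cell with a myb UMI entered, whatever its gates, 6061 in runx1-/- and 6644 in WT. Over those cells gata2b stood at 10.8 to 98.6 CPM in runx1-/- and 5.49 to 22.8 CPM in WT libraries, so the genotypes overlapped. Other values moved with genotype in the myb-positive class. Median depth was 4237 to 8105 UMIs per cell in runx1-/- and 10855 to 13532.5 in WT, and the summed level of the 17 endothelial markers was 197 to 759 CPM in runx1-/- and 11.9 to 116 CPM in WT. Lymphoid markers summed to 0 to 153 CPM in runx1-/- and 162 to 734 CPM in WT, and thrombocyte markers to 105 to 155 CPM in runx1-/- and 48.2 to 76.4 CPM in WT. Neuron markers summed to 66.6 to 357 CPM in runx1-/- and 16.6 to 78.4 CPM in WT, muscle markers to 3.28 to 62.9 CPM in runx1-/- and 1.53 to 6.55 CPM in WT, and haemoglobin to 28.4 to 788 CPM in runx1-/- and 21.8 to 65.2 CPM in WT. Epidermis markers summed to 33.9 to 1094 CPM in runx1-/- and 202 to 1942 CPM in WT. The part of these markers in the levels of gata2b and gata2a was not tested. After thinning to 2500 UMIs, 14.3 to 29.0% of runx1-/- myb-positive cells (506 left out) and 2.75 to 8.53% of WT myb-positive cells (117 left out) had a gata2b UMI; unthinned, the shares were 22.1 to 48.5% and 9.74 to 24.7%.

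**Figure D2:**
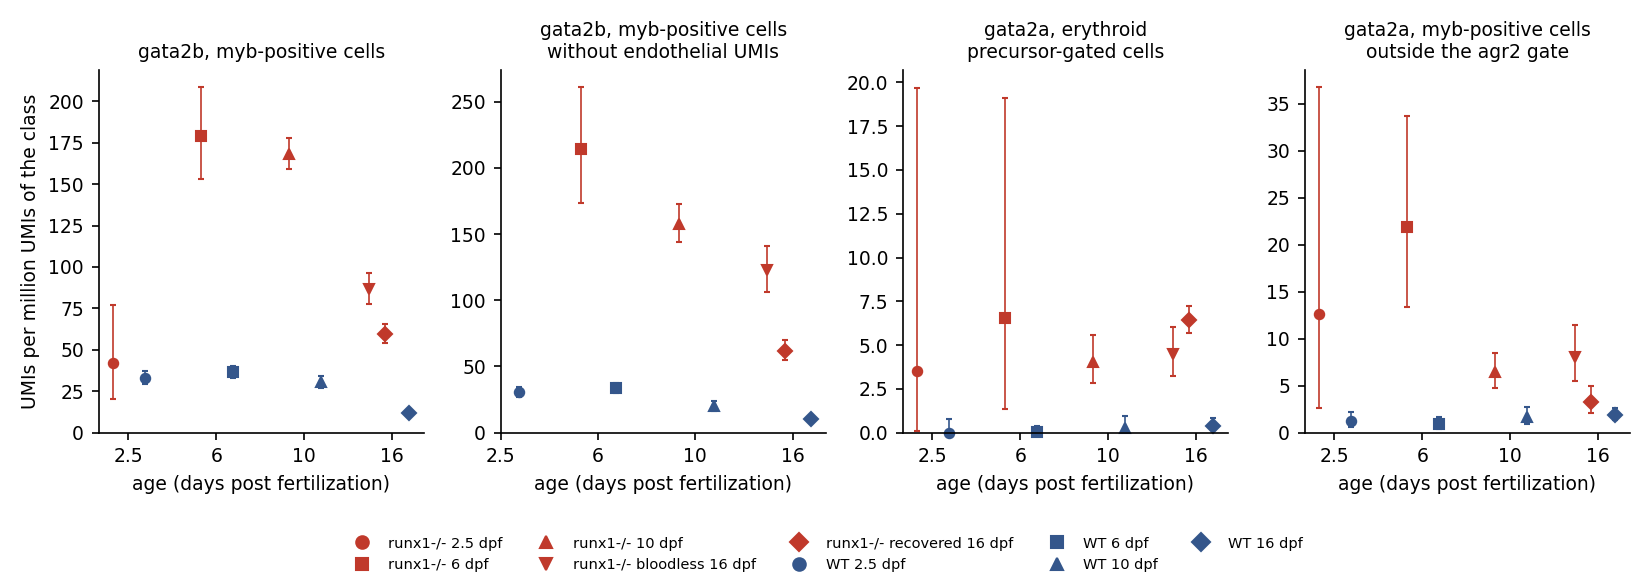
Levels by age and genotype in CPM of the class, with exact 95% Poisson intervals, for libraries with at least 20 cells; runx1-/- is red and left of WT in blue. In the panels of gata2b in myb-positive cells, with and without cells that have endothelial UMIs, and of gata2a in erythroid precursors, each runx1-/- library lies above each WT library; the panel outside the agr2 gate, which was picked for its gata2a, shows levels with no test.

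When myb-positive cells with a UMI of any endothelial marker were set aside, gata2b stood at 214, 158, 123 and 62.0 CPM in the runx1-/- 6 dpf, 10 dpf, bloodless and recovered libraries and at 30.7, 33.4, 20.1 and 10.4 CPM in the WT libraries. The groups again did not overlap. These libraries kept 1589 runx1-/- and 2964 WT cells, where the whole class held 2828 and 3737. Median depth was 3971 to 5923.5 UMIs in the runx1-/- cells and 10846 to 13364 in the WT cells. Cells whose endothelial transcripts were not read can therefore remain, more so at low depth. A fit of this subset was not planned in advance. Its log2 fold change was 2.36 (SE 0.30, edgeR adjusted p = 1.9e-04, with 7.41% of genes called). With cells counted in every class they meet it was 1.14 and the call was lost (edgeR adjusted p = 0.259). The runx1-/- 2.5 dpf library, with 9 such cells, did not enter this fit.

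gata2a in myb-positive cells stood at 12.6, 21.9, 6.41, 10.2 and 5.32 CPM in the runx1-/- libraries and at 1.2, 1.34, 5.21 and 5.68 CPM in the WT libraries. The recovered library lay below WT 16 dpf, so the genotypes overlapped, and the log2 fold change was 0.88 (SE 0.55, edgeR adjusted p = 0.367). Without the WT 16 dpf library it was 1.80 (edgeR adjusted p = 0.042). Much of gata2a in the older WT libraries lay in a few cells that also carried agr2, a protein folding enzyme of secretory cells, and spink2 genes. A gate of these genes, added after their values were seen, took 173 cells with 353 gata2a UMIs, 21.5% of the total, and held 56.6% and 61.4% of the gata2a UMIs of WT 10 dpf and WT 16 dpf.

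Outside that gate, gata2a in myb-positive cells stood at 12.6, 21.9, 6.41, 8.05 and 3.30 CPM in the runx1-/- libraries and at 1.2, 0.866, 1.69 and 1.88 CPM in the WT libraries. The gate was picked for its gata2a UMIs, so these gata2a values follow in part from that choice and are given with no test. The same cells gave gata2b a log2 fold change of 1.58 (edgeR adjusted p = 0.0064; 9.91% of genes called, 5.81% higher). They were 2819 of the 2828 runx1-/- and 3679 of the 3737 WT myb-positive cells, so this value nearly repeats the fit of the whole class.

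The genotypes could be set side by side in 2 further gated classes for gata2b. In thrombocyte-gated cells its 2 runx1-/- libraries lay above the 4 WT libraries, with a log2 fold change of 2.35 (SE 0.94, edgeR adjusted p = 0.274, with 1 residual degree of freedom; 2.14% of genes called). In neutrophil-gated cells the genotypes overlapped, with 0.21 (SE 0.78, edgeR adjusted p = 1.0; 1.87% called). gata2a did not pass the low-count filter in either class. No WT library held 20 endothelial-gated or 20 erythroid cells, so neither gene has a genotype test there, and whether the genotype difference differs between endothelial-gated and myb-positive cells was not tested.

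Erythroid precursors, a class whose genotype fit was added after the values were seen, showed a different pair of patterns. gata2a stood at 3.54, 6.53, 4.03, 4.46 and 6.42 CPM in the runx1-/- libraries and at 0, 0.064, 0.256 and 0.406 CPM in the WT libraries, from 346 UMIs in 3029 runx1-/- cells and 10 UMIs in 2210 WT cells. The groups did not overlap, although the runx1-/- 2.5 and 6 dpf values rest on 1 and 3 UMIs in 22 and 23 cells. The log2 fold change was 3.80 (SE 0.60, edgeR adjusted p = 0.0046), where 7.67% of 10233 genes were called and 2.47% were called higher. It ranged from 3.58 to 4.53 without single libraries, and lost the call without WT 10 dpf (3.86, edgeR adjusted p = 0.064) or runx1-/- 10 dpf (3.9, edgeR adjusted p = 0.075).

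gata2b in the same cells stood at 7.07, 0, 2.69, 3.83 and 1.48 CPM in the runx1-/- libraries and at 4.57, 10.0, 2.82 and 0.290 CPM in the WT libraries. The genotypes overlapped, and the log2 fold change was 0.08 (SE 0.76, edgeR adjusted p = 0.965). myb-positive cells were above erythroid precursors in gata2b in 9 of 9 libraries, with a count ratio of 16.3 (95% interval 14.5 to 18.3) and, where precursors took the place of erythroid cells in the class fit, a log2 fold change of 3.76 (SE 0.42, edgeR adjusted p = 1.6e-08; 55.1% called). For gata2a that ratio was 1.45 (95% interval 1.24 to 1.68), with myb-positive cells higher in 8 of 9 libraries and lower in the recovered library. The log2 fold change was 1.40 (SE 0.53, edgeR adjusted p = 0.029). It rests in WT on 10 gata2a UMIs of precursors and includes the myb-positive cells of the agr2 gate.

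The precursors of both genotypes differed in haemoglobin, which summed to 21972 to 32241 CPM in runx1-/- and 626 to 7572 CPM in WT, and erythroid precursor markers summed to 2044 to 3755 CPM in runx1-/- and 848 to 1879 CPM in WT. Thrombocyte markers summed to 140 to 177 CPM in runx1-/- and 69.1 to 94.4 CPM in WT, and neuron markers to 23.9 to 228 CPM in runx1-/- and 6.74 to 105 CPM in WT. Muscle markers summed to 4.14 to 81.4 CPM in runx1-/- and 1.40 to 3.04 CPM in WT, endothelial markers to 17.1 to 64.1 CPM in runx1-/- and 2.36 to 20.1 CPM in WT, and neutrophil markers to 6.53 to 31.8 CPM in runx1-/- and 20.3 to 85.0 CPM in WT. The part of these markers in the gata2a difference was not tested. Among cells with under 0.1% haemoglobin UMIs, gata2a stood at 4.31 CPM in runx1-/- (60 UMIs in 665 cells of 3 libraries) and at 0.180 CPM in WT (6 UMIs in 1650 cells of 4 libraries), with libraries at 2.73 to 7.08 CPM in runx1-/- and 0 to 0.300 CPM in WT; these bins were not tested. Macrophage-gated cells held 1 gata2a UMI in 286 runx1-/- cells and 4 in 222 WT cells. After thinning to 2500 UMIs, 46 of 2980 runx1-/- precursors (49 left out) and 1 of 2199 WT precursors (11 left out) had a gata2a UMI; unthinned, 4.55 to 10.6% and 0 to 0.922% of cells did.

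Within the red cell lineage of runx1-/- libraries, gata2a was present at every haemoglobin level, while gata2b was lower in each successive bin. With haemoglobin at under 0.1, 0.1 to 1, 1 to 10 and 10 or more percent of UMIs, gata2a stood at 4.31, 5.0, 6.44 and 4.5 CPM. gata2b stood at 6.53, 2.32, 0.341 and 0.0363 CPM over the same bins, the last from 1 UMI in 1738 cells. Over the 4 libraries with both classes, precursors held 56.5 times the gata2b level of erythroid cells (123 UMIs against 1; 95% interval 9.96 to 2250) and 1.27 times the gata2a level (343 UMIs against 124; 95% interval 1.03 to 1.57). In WT, gata2b stood at 6.07, 0 and 0.530 CPM in the first 3 bins, and the last bin held 23 cells with 0 UMIs of either gene.

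**Figure D3:**
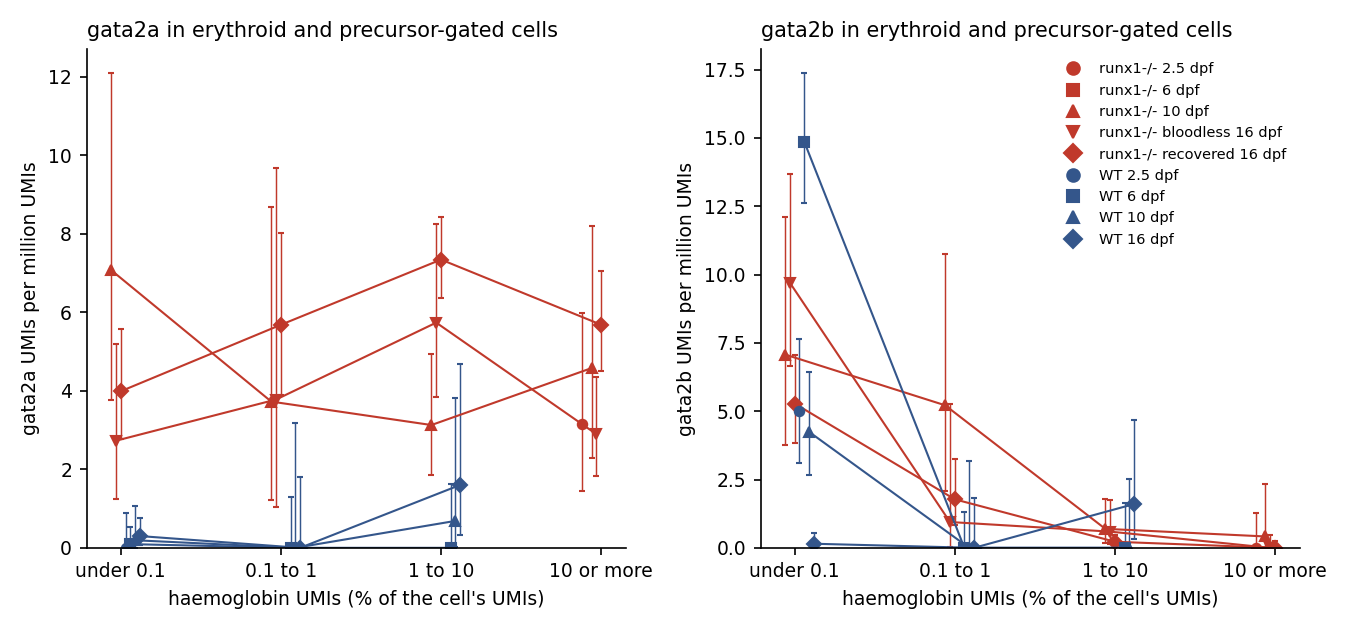
gata2a (left) and gata2b (right) in erythroid and erythroid precursor cells, in CPM, by the share of haemoglobin among the UMIs of a cell, with exact 95% Poisson intervals; lines join the points of a library with at least 20 cells in a bin. The runx1-/- lines (red) of gata2a run from 2.73 to 7.34 over the first 3 bins, above the WT lines (blue), while gata2b is at most 0.416 in runx1-/- erythroid cells.

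Cells with a myb UMI, whatever their gate, were split by how many of the 17 endothelial markers they carried. In runx1-/- libraries, cells with at least 2 such genes had gata2b at 34, 111, 176, 34.7 and 26.1 CPM, against 4.89, 109, 54.4, 23.8 and 8.59 CPM in cells with none (2.5, 6, 10 dpf, bloodless, recovered). In WT libraries the values were 78.6, 106, 33.5 and 7.26 CPM with at least 2 and 20.9, 18.0, 10.1 and 4.49 CPM with none (2.5, 6, 10 and 16 dpf). gata2b was thus higher with endothelial genes in 9 of 9 libraries, although the runx1-/- 6 dpf values were close to each other and the runx1-/- 2.5 dpf, WT 2.5 dpf and WT 6 dpf groups held 8, 11 and 8 cells. The cells with none include cells of other gates: 2359 in the recovered library, against 784 in its myb-positive class. Within that class, cells without endothelial UMIs lay above the whole class in runx1-/- 6 dpf, bloodless and recovered, and below it in the other libraries. The part of this mix of classes in the order was not tested.

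gata2a did not follow this order: it was higher with endothelial genes in 2 of 9 libraries. Its level with at least 2 and with no endothelial genes was 23.0 and 24.2 CPM in runx1-/- 6 dpf, 4.29 and 4.52 CPM in runx1-/- 10 dpf, and 5.45 and 7.0 CPM in the recovered library. In the WT libraries at 2.5, 6 and 10 dpf, cells with at least 2 endothelial genes had 0 gata2a UMIs.

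**Figure D4:**
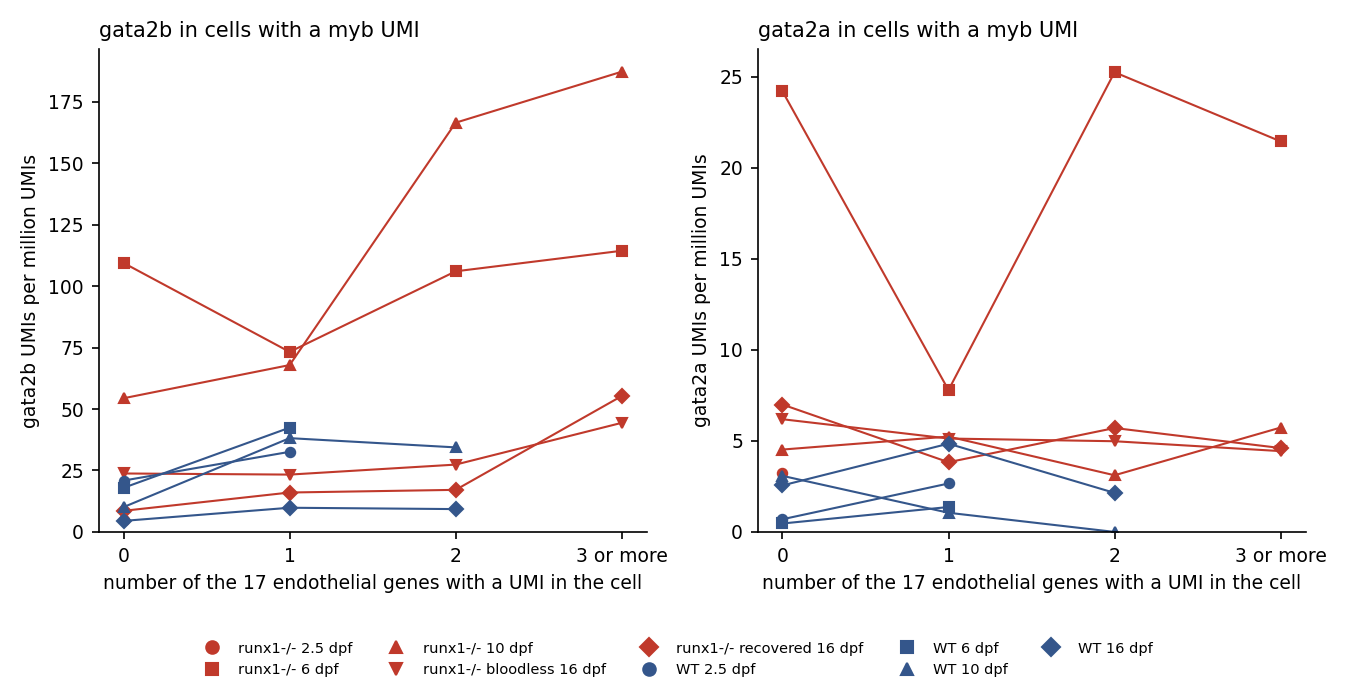
gata2b (left) and gata2a (right) in cells with a myb UMI, in CPM, by the number of the 17 endothelial genes with a UMI in the cell; points are libraries with at least 20 cells in a bin, runx1-/- in red and WT in blue. The runx1-/- 10 dpf line of gata2b climbs to 187 in cells with 3 or more endothelial genes, while gata2a shows no common direction.

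Detection in the same cell was compared within libraries after each cell was thinned to 2500 UMIs, by the log2 odds ratio and an exact sign-flip permutation test over libraries, with p-values adjusted over 5 pairs. Cells of every class entered together, so the odds ratios also hold the mix of classes in a library, whose part was not tested. gata2b and myb were found together more often than independence gives in 9 of 9 libraries, with a mean log2 odds ratio of 1.47 ± 1.39 (SD, n = 9; two-sided exact p = 0.0039, the smallest that 9 libraries allow; adjusted p = 0.020). In the runx1-/- 2.5 dpf library under 1 joint cell was expected, and without it the mean was 1.06. The thinned joint cells, as means of 50 draws, were 2.2, 28.2, 197, 58.9 and 106 where 0.135, 14.2, 145, 21.5 and 50.7 were expected in the runx1-/- libraries. They were 18.8, 45.0, 38.2 and 22.8 where 14.0, 33.1, 29.3 and 20.6 were expected in the WT libraries, a smaller excess that is close to the expected number at 16 dpf.

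gata2b and endothelial genes (at least 2 in the cell) were found together more often in 7 of 7 libraries with enough cells, with a mean log2 odds ratio of 2.25 ± 0.79 (SD, n = 7; exact p = 0.016, the smallest that 7 libraries allow; adjusted p = 0.039). In the runx1-/- 6 dpf, 10 dpf, bloodless and recovered libraries, 20.02, 142, 30.8 and 23.2 joint cells were found where 9.20, 81.4, 10.5 and 5.47 were expected. Between the 2 classes high in gata2b the thinned shares of cells with a gata2b UMI were closer. They were 28.4, 32.4, 15.7 and 22.7% of endothelial-gated and 25.6, 29.0, 20.8 and 14.8% of myb-positive cells in the same libraries. In the runx1-/- 2.5 dpf, WT 10 dpf and WT 16 dpf libraries under 1 joint cell was expected, and there the 0.5 added to each count lifts the odds ratio. With 6 libraries the smallest exact p is 0.031, so leaving out any of the 7 took the adjusted p past the threshold in 6 of the 7 cases by the size of the design.

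gata2a was found with endothelial genes at a mean log2 odds ratio of 1.17 ± 1.28 (SD, n = 7; above 0 in 6 of 7; exact permutation p = 0.078, adjusted p = 0.130). It passed by Mantel-Haenszel over depth bins (0.81, above 0 in 7 of 7; exact permutation, adjusted p = 0.026) and without the recovered library (1.49; exact permutation, adjusted p = 0.039). In the runx1-/- 6 dpf, 10 dpf, bloodless and recovered libraries there were 3.12, 7.66, 3.52 and 0.920 joint cells where 2.75, 5.47, 2.41 and 1.94 were expected, and the other 3 libraries expected under 1. gata2a and myb gave a mean log2 odds ratio of -0.13 ± 1.44 (SD, n = 9; above 0 in 3 of 9; exact permutation p = 0.801, adjusted p = 0.801). The sign split by library, with 9.28 and 14.9 joint cells where 4.24 and 9.71 were expected in runx1-/- 6 and 10 dpf, and with 1.14 where 6.18 were expected in WT 6 dpf.

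gata2a and gata2b themselves met in 111 cells, which were 10.0% of the gata2a cells and 3.38% of the gata2b cells. By library there were 1, 10, 36, 19 and 14 such cells in runx1-/- and 3, 9, 3 and 16 in WT, and 69 of the 111 also had myb. The mean log2 odds ratio was 0.38 ± 1.11 (SD, n = 9; above 0 in 7 of 9; exact permutation p = 0.383, adjusted p = 0.479). In the runx1-/- 2.5 dpf and the WT 2.5, 10 and 16 dpf libraries under 1 joint cell was expected, and there the added 0.5 lifts the odds ratio. The recovered library went the other way, with 0.740 joint cells where 3.73 were expected. Its log2 odds ratio of -1.94 was the lowest. Without it the mean was 0.67 (exact permutation, adjusted p = 0.039), a value that follows from leaving out the lowest library.

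**Figure D5:**
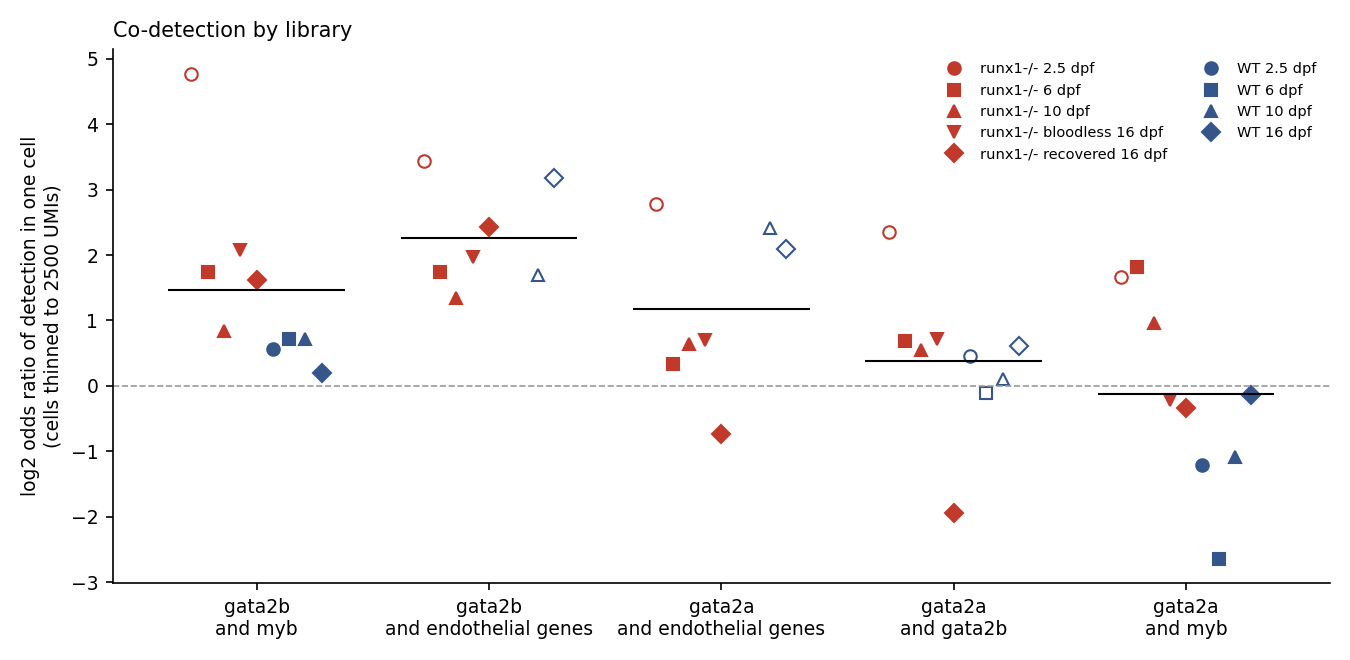
Log2 odds ratio of detection in one cell for 5 pairs, with cells thinned to 2500 UMIs; each point is a library, runx1-/- in red to the left of WT in blue, and black lines are means over libraries. Open points mark libraries in which under 1 joint cell was expected, where the added 0.5 lifts the ratio. gata2b with myb (mean 1.47) and with endothelial genes (2.25) lies above 0 in every library shown, and the other pairs lie on both sides.

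The neighbours of both genes in their pathways were taken from 3 lists of related genes. Of 6 GATA factors and FOG partners tested between classes, 4 passed the test for endothelial-gated cells: gata2b, gata3 (log2 fold change 4.19) and the cofactor gene zfpm1 (1.19) were higher, and gata1a (-4.76), a marker of the erythroid precursor gate, was lower. Over all genes 24.1% were called and 18.5% were called higher; the median over the list was 1.57, against 0.16 over all genes. In myb-positive cells gata2b, gata2a, gata3 (2.35) and gata1b (3.06) were higher and none lower, where 20.2% of all genes were called and 16.9% were called higher, with a median of 2.21 against 0.19 over all genes; the gata2a value includes the thrombocyte sums at 0.

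Of 12 Notch and haemogenic endothelium genes, 11 were higher and none lower in endothelial-gated cells, among them the transcription factor etv2 (5.62), the ligands dlc (5.98) and dll4 (3.54), and the Notch target hey2 (4.58). Of these, 5 were higher in myb-positive cells. Of 15 stem cell transcription factors, 7 were higher in endothelial-gated cells, led by gfi1aa (6.93), and 9 in myb-positive cells, of which myb was itself used to choose the cells; none was lower. Over all genes 18.5% were called higher in endothelial-gated and 16.9% in myb-positive cells. The list medians in endothelial-gated cells were 3.51 for the Notch and haemogenic endothelium genes and 0.91 for the stem cell factors. In myb-positive cells they were 1.51 and 0.95.

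Between genotypes in myb-positive cells, gata2b was the only member higher among the 8 GATA and FOG genes tested, and gata1b was lower (-2.2), where 9.37% of all genes were called and 5.45% were called higher; the median was 0.84, against -0.02 over all genes. Of 16 stem cell factors, 6 were higher in runx1-/-, including meis1b (2.17), runx1 (2.10) and hhex (1.68), and spi1b, a factor of myeloid cells, was lower (-1.98), with a median of 0.58. Of 15 Notch and haemogenic endothelium genes, dlc (6.13), dll4 (3.40) and jag2b (2.26) were higher. In that list cxcr4a (-1.80) and her9 (-1.49) were lower, and the median was 0.13. In erythroid precursors gata2a was the only higher member of 6 GATA and FOG genes and gata1b was lower (-2.30), where 7.67% of all genes were called and 2.47% were called higher, with a median of 0.34 against -0.06 over all genes. There meis1b (2.61) was the only higher stem cell factor of 14, with myb (-2.36), tcf3a (-1.57) and fli1b (-3.30) lower. Of 7 Notch and haemogenic endothelium genes in precursors, sox17 (3.56) was higher and notch1b (-2.88) and her9 (-1.95) lower.

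Across the 30 sums of libraries and classes, the genes whose log2(CPM + 1) correlated best with gata2b, among 7547 compared, were samd11 (Pearson r 0.89), traf4a (0.88), fgfrl1a (0.88), tox2 (0.87) and dnmt3ab (0.87). Those of gata2a were nkx3.2 (0.69), mknk2a (0.68), dlc (0.66), a gene listed by a clone name (0.66) and si:ch1073-291c23.2 (0.65), and gata2a correlated with gata2b at 0.29. None of these genes marks a gate. The sums share libraries and depth, so these values describe the pattern only.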

How the data were processed

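Cells sorted for low cd41:GFP were profiled with the 10x Chromium 3' kit, version 3, per the labels, and each library is a matrix of UMI counts per gene and barcode that the authors deposited without normalization. Per the submitters' processing notes, Cell Ranger 2.0.2 and the genome build GRCz10 were used; the settings are not given in the sources used here. Barcodes with at least 500 UMIs, 200 genes and at most 20% mitochondrial UMIs were kept (29994 of 30917), and the 1119 highest Scrublet scores (0.8% per 1000 cells in a library, scanpy 1.11.5) were removed as doublets. The deposited 2.5 dpf matrices start at about 2900 UMIs per barcode and the later ones at about 500. Library totals of 5166313 to 94476178 UMIs set the counting precision, and Poisson, binomial (Clopper-Pearson) and ratio intervals at 95% cover counting error only.

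Genes were joined by identifier (24201 shared by all libraries). Counts were summed over each library and class of at least 20 cells and tested with edgeR 4.0.16 (quasi-likelihood, R 4.3.3): classes with library as a block over 30 sums, genotypes with age as a factor, Benjamini-Hochberg adjustment at 0.05. DESeq2 1.42.0, other gates, filters, thinning and left-out libraries were alternatives. Co-detection added 0.5 to each count of the 2 by 2 table, and levels of genes per length are not compared, since 3' tags carry no length. Named were gata2a, gata2b, myb, runx1, endothelial markers, list members called in a printed comparison, and the 5 genes that correlate best with each gene. The members, lists and gates were chosen with earlier results of these data known. The labels do not say that libraries came from separate groups of animals. Class p-values measure how class differences vary between libraries, since library was a block. Genotype p-values measure the spread left after age: how the genotype difference varies between ages, and how bloodless differs from recovered. Co-detection p-values rest on the odds ratios of the libraries, which differ in age.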

Additional observations from a re-analysis of the deposited data

Results flagged for a closer look

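The level of gata2a over all cells of the runx1-/- 6 dpf library, 12.7 CPM, stood apart from the other 4 runx1-/- libraries at 4.92 to 6.31 CPM by its gap to the nearest of them. That library was the shallowest, with 762 kept cells. The level of gata2b in the erythroid cells of runx1-/- 10 dpf, 0.416 CPM, stood apart from 3 libraries at 0, and rests on 1 UMI. Of 19 groups of libraries checked in this way 2 were marked, and chance marks about 1 in 20.

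The agr2 and spink2 gate was not itself a class in any comparison. Its cells held 353 gata2a UMIs in 97 of 173 cells and 22 gata2b UMIs in 14 cells. Their gata2a level was 108, 194 and 195 CPM in the runx1-/- 10 dpf, bloodless and recovered libraries and 82.1, 74.6 and 112 CPM in the WT 6, 10 and 16 dpf libraries. They made up 55 of the 111 cells with at least 3 gata2a UMIs, and 80 of the 173 had a myb UMI. Of the 173, 67 were in the myb-positive class and entered its comparisons. The gate was chosen after these values were seen, so they are a description.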

How the results depend on the processing

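Of 731 recomputed values for 28 results, 654 kept their direction and side of the threshold, 48 lost a call, 11 gained one and 18 changed sign. The causes were not tested. The counts include 27 values of gata2a outside the agr2 gate, of which 22 kept theirs and 5 lost a call. That gate was picked for its gata2a, so these 27 carry no support. The gata2b values of endothelial-gated and myb-positive cells against the other 4 classes and against neutrophil-gated cells, and gata2b with myb, kept theirs under every alternative run. No pairing of replicates between groups was possible because each group had 1 library and the labels carry no shared replicate numbers. Classes were compared within libraries through the library term, and the genotype fits had age as a term. Genotype fits in endothelial-gated and erythroid cells, and the test of a difference between classes, gave no value, since no WT library held 20 such cells.

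With gates of 2 markers, gata2a was -0.034 in endothelial-gated cells against the other 4 classes, 0.55 in myb-positive over neutrophil-gated and 0.88 in erythroid over neutrophil-gated cells. gata2a in endothelial-gated over myb-positive cells was 0.045 with gates of 4 markers, 0.65 thinned, 0.13 without 16 dpf and 0.015 without the bloodless library (-0.57 to 0.015 without single libraries). Counted in every class they meet, cells gave gata2b 1.17 for endothelial-gated over myb-positive (adjusted p = 0.036), 1.08 between genotypes in myb-positive cells and 1.14 without endothelial UMIs, and gave gata2a 1.12 in myb-positive over neutrophil-gated cells. That last contrast was 1.04 without 10 dpf, 1.33 without 16 dpf, 1.54 with precursors in place of erythroid cells, and 1.22 to 2.09 without single libraries. gata2a in erythroid over neutrophil-gated cells was 1.34 with a haemoglobin gate of 20%, 1.64 without 16 dpf, 0.14 with precursors and 1.75 to 2.50 without single libraries. Against erythroid cells gata2a was 0.86 thinned and 0.78 with precursors in endothelial-gated cells, and 0.078 with the 20% gate, 0.21 thinned and 1.40 with precursors in myb-positive cells. gata2b in neutrophil- over thrombocyte-gated cells was 3.52 thinned.

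Between genotypes in myb-positive cells, gata2b was 1.34 without 10 dpf and 1.3 to 1.91 without single libraries, and gata2a 1.80 without 16 dpf and 0.17 to 1.80 without single libraries. Outside the agr2 gate, picked for its gata2a and so with no valid test, gata2a was 2.08 with 2 myb UMIs, 1.85 without 2.5 dpf, 1.45 without 6 dpf and 1.41 to 2.82 without single libraries. In precursors gata2a was 3.58 to 4.53 without single libraries, and gata2b -0.24 with the 20% gate, -1.05 without 16 dpf, -1.03 without WT 16 dpf and -0.17 without the bloodless library (-1.03 to 0.99 without single libraries). Log2 odds ratios of gata2a with myb were 0.086 with all UMIs and 0.0019 and 0.18 without WT 2.5 or 6 dpf (-0.37 to 0.18 without single libraries), and of gata2a with endothelial genes 0.81 by Mantel-Haenszel (exact permutation, adjusted p = 0.026) and 0.90 to 1.49 without single libraries (called without the recovered library). They were 2.06 to 2.4 for gata2b with endothelial genes, and 0.13 to 0.67 for gata2a with gata2b, without single libraries.

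Genes called in endothelial-gated cells numbered 2704, against 1035 (thinned) to 5059 (every class); in myb-positive cells 2264, against 668 (without 16 dpf) to 1405 (without the recovered library) where they moved; between genotypes in myb-positive cells 1168, against 411 (every class) to 1812 (no low-count filter); and in precursors 785, against 95 (without runx1-/- 10 dpf) to 2222 (without 2.5 dpf).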

Other observations

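Neuron-gated cells had a higher gata2a level, 62.3 CPM over all libraries, than the blood and endothelial classes. The cells of the agr2 gate, which was picked for its gata2a, stood at 74.6 to 195 CPM by library. In neuron-gated cells the level was 76.1, 152, 0 and 27.7 CPM in the runx1-/- 2.5 dpf, 6 dpf, bloodless and recovered libraries and 93.7 and 17.6 CPM in the WT 2.5 and 16 dpf libraries, each with 43 to 53 cells. Summed over these 6 libraries it was 11.3 times the myb-positive level (95% interval 8.12 to 15.5, higher in 5 of 6), from 49 UMIs. gata2b had 3 UMIs in the same neuron-gated cells, 0.103 times its myb-positive level (95% interval 0.021 to 0.303).

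Cells that met no gate held 30.6% of gata2a UMIs and 25.1% of gata2b UMIs. gata2b there stood at 2.0, 33.2, 125, 26.8 and 34.8 CPM in the runx1-/- libraries and at 20.6, 16.4, 9.57 and 7.73 CPM in the WT libraries, below the myb-positive cells in 9 of 9 libraries. gata2a stood at 4.4, 6.48, 7.45, 11.7 and 9.26 CPM in the runx1-/- libraries and at 2.60, 13.7, 3.66 and 6.31 CPM in the WT libraries, and the genotypes overlapped for both genes.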
